A study of Mus musculus with 6 samples.

Results

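Transcript levels of 8 genes of the hepatic urea cycle and of ammonia handling were compared between livers of mice with a homozygous disruption of Lmln (genotype Lmln-/-, here Lmln-KO) and of wild-type (WT) mice, both of strain C57BL/6J. The genes were taken by name from the table of gene counts: Cps1, Otc, Ass1, Asl, Arg1 and Nags of the cycle, the liver glutaminase Gls2 and the glutamate dehydrogenase Glud1. All 8 were among its 55367 gene names, and all 8 were among the 18703 genes with enough counts to be tested. Each genotype had 3 libraries of total liver RNA, with age given as 46 weeks except for Lmln-KO replicate 3, at 39 weeks. How the Lmln allele was made is not stated in the labels.

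Ammonia released from amino acids is toxic, and the liver turns it into urea. In mitochondria carbamoyl phosphate synthetase, switched on by N-acetylglutamate, fixes ammonia, and ornithine transcarbamylase passes the product to ornithine. The next steps run in the cytosol through argininosuccinate to arginine, from which arginase releases urea and ornithine. The pathway is concentrated in periportal hepatocytes, with glutaminase beside it, whereas glutamine synthetase captures the remaining ammonia in the cells around the central vein.

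Counts assigned to genes summed to 20957895 to 22494696 in Lmln-KO libraries and to 17388360 to 18272045 in WT libraries. Lmln itself measured 0.281 ± 0.253 CPM (counts scaled to library size with TMM factors; mean ± SD, n = 3) across Lmln-KO libraries, against 3.74 ± 1.31 CPM across WT libraries, with no overlap between the groups, and its adjusted p was 2.3e-06 in DESeq2 and 0.933 in edgeR (7.1e-08 in DESeq2 and 0.16 in edgeR with the term described next). Sex is not given in the labels, and the libraries differed in sex-chromosome transcripts: 4 Y-linked genes summed to 216 to 235 CPM in Lmln-KO replicates 1 and 2 and in WT replicate 1, while Xist reached 1878 to 1947 CPM in the other 3 libraries, Lmln-KO replicate 3 and WT replicates 2 and 3. Results are therefore given by genotype and, where stated, after adding this split as a covariate, called the sex-marker term. Mitochondrial transcripts took 7.04% to 9.61% of counts in Lmln-KO and 7.67% to 9.12% in WT.

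None of the 8 genes was shown to differ between genotypes beyond the spread between libraries. In edgeR's quasi-likelihood test 0 of 8 passed a Benjamini-Hochberg adjusted p of 0.05 over all genes tested, where 0% of the 18703 genes passed, and 0 of 8 had an unadjusted p under 0.05, against 4.66% of all genes tested. With the sex-marker term 0 of 8 passed, where 0.00535% of all genes did, and DESeq2 also called 0 of 8, against 0.128% of all genes and, with the term, 0.166%. The Lmln-KO and WT ranges overlapped for every one of the 8, whereas 10.3% of all genes tested showed no overlap (4.61% with Lmln-KO higher and 5.73% with Lmln-KO lower). The log2 fold change of Lmln-KO over WT was negative for 6 genes and positive for 2, with a median of -0.34, against a median of -0.0038 over all genes tested.

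The size of these differences depended on single libraries, most of all on WT replicates 3 and 2. WT replicate 3 had the highest level of all 6 libraries for Cps1, Otc, Ass1, Asl, Arg1 and Gls2 and the lowest for Nags and Glud1. Across all genes tested it was the highest library for 23.7% and the lowest for 23.4%. Without it the median log2 fold change of the 8 genes was -0.096, against -0.00082 over all genes tested. Without WT replicate 2 the median of the 8 was -0.56, with -0.64 for Cps1, -0.48 for Arg1 and 0.18 for Glud1. It was -0.23 without Lmln-KO replicate 3 and -0.44 without Lmln-KO replicate 2. The log2 fold change of Nags ran only from 0.21 to 0.37 when single libraries were left out.

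**Figure D1:**
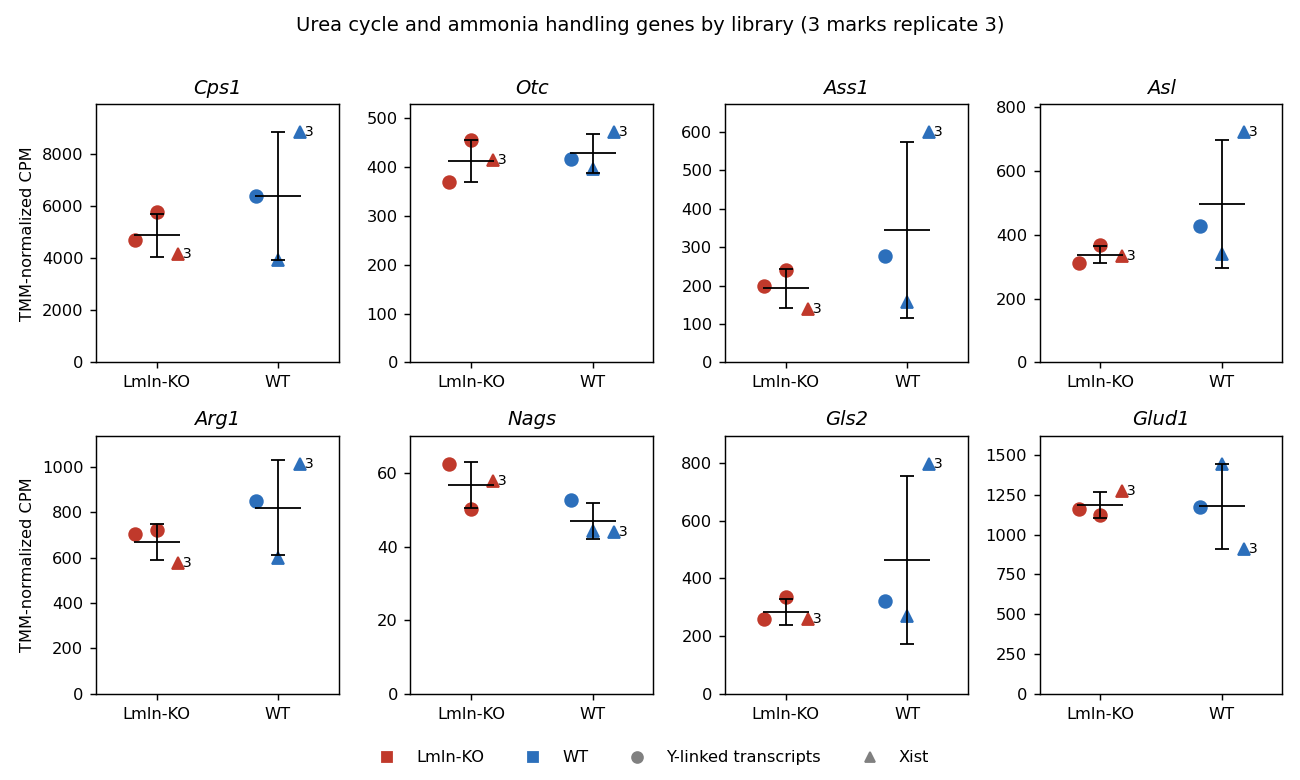
TMM-normalized CPM (linear axis from 0) of each gene in the 3 Lmln-KO libraries (red, left) and the 3 WT libraries (blue, right); bars are mean ± SD (n = 3), circles are libraries with Y-linked transcripts and triangles are libraries with Xist. The ranges of the groups overlap for all 8 genes, and WT replicate 3 stands above the other libraries for Ass1 (599 CPM) and Gls2 (798 CPM).

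The promoters of 3 genes are printed because their genes mark the range of behaviour among the members: Ass1 varied most between libraries, Otc varied least, and Nags was the member with the largest positive log2 fold change. Sequences are from a table of RefSeq promoters (GRCm38.p6), in which 4 of the 8 genes were matched, and run from 250 bases before to 50 bases after the annotated start on the plus strand: Ass1 at chr2:31470020-31470319, Otc at chrX:10252055-10252354 and Nags at chr11:102145263-102145562. Capitals mark matches, on either strand, to TATAA (the core of a TATA box), CCAAT (the box bound by NF-Y), GGGCGG (the GC box bound by SP1), TGACG (the core of a cAMP response element) or TTGCNNAA (a form of the C/EBP site).
Ass1: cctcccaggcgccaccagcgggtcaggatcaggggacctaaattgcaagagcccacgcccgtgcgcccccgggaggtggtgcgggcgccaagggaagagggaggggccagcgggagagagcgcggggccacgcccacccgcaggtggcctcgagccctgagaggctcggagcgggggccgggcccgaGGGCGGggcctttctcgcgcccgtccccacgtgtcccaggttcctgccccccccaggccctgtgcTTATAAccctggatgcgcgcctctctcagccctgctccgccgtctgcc
Otc: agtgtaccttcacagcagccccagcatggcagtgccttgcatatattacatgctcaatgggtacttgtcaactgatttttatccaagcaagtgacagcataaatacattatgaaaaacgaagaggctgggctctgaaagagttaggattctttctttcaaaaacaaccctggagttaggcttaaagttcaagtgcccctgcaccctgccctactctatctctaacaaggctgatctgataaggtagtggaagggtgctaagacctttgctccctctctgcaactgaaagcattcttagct
Nags: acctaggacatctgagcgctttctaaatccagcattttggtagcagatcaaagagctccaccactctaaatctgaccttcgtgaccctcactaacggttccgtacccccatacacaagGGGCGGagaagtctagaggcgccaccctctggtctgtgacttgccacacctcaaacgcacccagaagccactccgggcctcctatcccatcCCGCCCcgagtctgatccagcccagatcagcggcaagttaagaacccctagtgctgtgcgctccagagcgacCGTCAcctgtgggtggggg
The Ass1 window held 1 GC box match and a TATAA that matched on both strands, which overlap. These TATAA matches began at bases 4 (plus strand) and 3 (minus strand) after the annotated start, not upstream of it. Whether they act as a TATA box was not tested. The Nags window held 2 GC box matches and 1 TGACG match on the minus strand. No letters of the 5 motifs were found in the Otc window, whose GC content was 44.3%, against 74% for Ass1, 57.7% for Nags and a median of 52.7% over all promoters of the same length. Of 32851 such promoters, 24.9% held TATAA, 37.4% held CCAAT, 35.7% held GGGCGG, 20.8% held TGACG and 10.8% held TTGCNNAA.

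The mitochondrial entry to the cycle was covered by Nags, Cps1 and Otc. Nags (chromosome 11, 102145513 to 102149477, GRCm38), the synthase that makes the N-acetylglutamate required by carbamoyl phosphate synthetase, measured 62.6, 50.3 and 57.8 CPM in Lmln-KO replicates 1, 2 and 3, against 52.6, 44.4 and 43.9 CPM in WT replicates 1, 2 and 3. Lmln-KO replicates 1 and 3 were above every WT library, and Lmln-KO replicate 2 lay below WT replicate 1. Its log2 fold change of 0.28 (SE 0.12) had a 95% interval of -0.0053 to 0.56 and an edgeR adjusted p of 0.933. The value was 0.24 (SE 0.12) with the sex-marker term and 0.23 (SE 0.14) without WT replicate 3. The antisense predicted gene Gm11586 overlaps 15.6% of the exon bases of Nags and was itself assigned at most 15 counts in a library, while strand was not used in counting.

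Cps1 (chromosome 1, 67123026 to 67231259), the carbamoyl phosphate synthetase that commits ammonia to urea, was the most abundant of the 8. It measured 4697, 5777 and 4154 CPM in Lmln-KO replicates 1, 2 and 3, against 6375, 3911 and 8835 CPM in WT replicates 1, 2 and 3. The WT libraries held both the lowest and the highest value, so that the Lmln-KO libraries lay within the WT range. This gave a log2 fold change of -0.39 (SE 0.30), with a 95% interval of -1.07 to 0.29 and an edgeR adjusted p of 0.933. Without WT replicate 3 it was -0.076 (SE 0.26).

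Otc (chromosome X, 10252305 to 10321024), ornithine transcarbamylase, was the steadiest member. It measured 369, 455 and 414 CPM in Lmln-KO replicates 1, 2 and 3, against 415, 396 and 471 CPM in WT replicates 1, 2 and 3, and the highest library exceeded the lowest by 1.28 times. Its log2 fold change was -0.049 (SE 0.14), with a 95% interval of -0.36 to 0.26 and an edgeR adjusted p of 0.971, and it was 0.027 without WT replicate 3. Otc is X-linked. Its levels in the libraries with Xist, 414 CPM for Lmln-KO replicate 3, against 396 CPM for WT replicate 2 and 471 CPM for WT replicate 3, lay within or just above the range of the libraries with Y-linked transcripts, which reached from 369 to 455 CPM.

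The cytosolic steps were covered by Ass1, Asl and Arg1. Ass1 (chromosome 2, 31470207 to 31520672), argininosuccinate synthetase, which joins citrulline and aspartate, measured 198, 239.6 and 140.1 CPM in Lmln-KO replicates 1, 2 and 3, against 277, 156 and 599 CPM in WT replicates 1, 2 and 3. WT replicate 3 alone lay far above the rest, while WT replicate 2 lay within the Lmln-KO range. Over the 6 libraries its levels spanned 4.28-fold, and the SD of its log2 CPM was larger than that of 92.6% of all genes tested. For Ass1 the log2 fold change of -0.84 (SE 0.53) had a 95% interval of -2.16 to 0.48 and an edgeR adjusted p of 0.933, and without WT replicate 3 it was -0.17 (SE 0.32).

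Asl (chromosome 5, 130011258 to 130029247), the lyase that splits argininosuccinate into arginine and fumarate, measured 311, 366 and 334 CPM in Lmln-KO replicates 1, 2 and 3, against 427, 338 and 721 CPM in WT replicates 1, 2 and 3. WT replicates 1 and 3 were above every Lmln-KO library and WT replicate 2 was not. Its log2 fold change was -0.56 (SE 0.27), with a 95% interval of -1.18 to 0.068 and an edgeR adjusted p of 0.933. It was -0.50 (SE 0.30) with the sex-marker term and -0.18 (SE 0.15) without WT replicate 3.

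Arg1 (chromosome 10, 24915221 to 24927484), the liver arginase that releases urea, measured 706, 719 and 576 CPM in Lmln-KO replicates 1, 2 and 3, against 847, 598 and 1014 CPM in WT replicates 1, 2 and 3. As for Asl, WT replicates 1 and 3 exceeded all Lmln-KO libraries and WT replicate 2 did not. The log2 fold change was -0.30 (SE 0.21), with a 95% interval of -0.78 to 0.18 and an edgeR adjusted p of 0.933, and it was -0.11 (SE 0.19) without WT replicate 3.

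Gls2 and Glud1 supply ammonia and glutamate to the cycle. Gls2 (chromosome 10, 128194457 to 128210004), the liver-type glutaminase, which frees ammonia from glutamine, measured 259, 336 and 258 CPM in Lmln-KO replicates 1, 2 and 3, against 322, 270.02 and 798 CPM in WT replicates 1, 2 and 3. All libraries but WT replicate 3 lay between 258 and 336 CPM. The log2 fold change of -0.71 (SE 0.43), with a 95% interval of -1.77 to 0.36 and an edgeR adjusted p of 0.933, became -0.059 (SE 0.17) without that library. Spryd4, on the opposite strand, overlaps 2.79% of the exon bases of Gls2.

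Glud1 (chromosome 14, 34310727 to 34345265), glutamate dehydrogenase, which interconverts glutamate with ammonia and 2-oxoglutarate, measured 1162, 1120.3 and 1274 CPM in Lmln-KO replicates 1, 2 and 3, against 1175, 1446 and 912 CPM in WT replicates 1, 2 and 3. The WT libraries again held both extremes, but here WT replicate 3 was the lowest. The log2 fold change was 0.0097 (SE 0.19), with a 95% interval of -0.42 to 0.44 and an edgeR adjusted p of 0.995, and it was -0.14 (SE 0.16) without WT replicate 3. A pseudogene, Glud-ps, was assigned 1825 to 3487 counts per library beside 15844 to 29891 for Glud1, so the level of Glud1 is uncertain by reads that both could give.

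**Figure D2:**
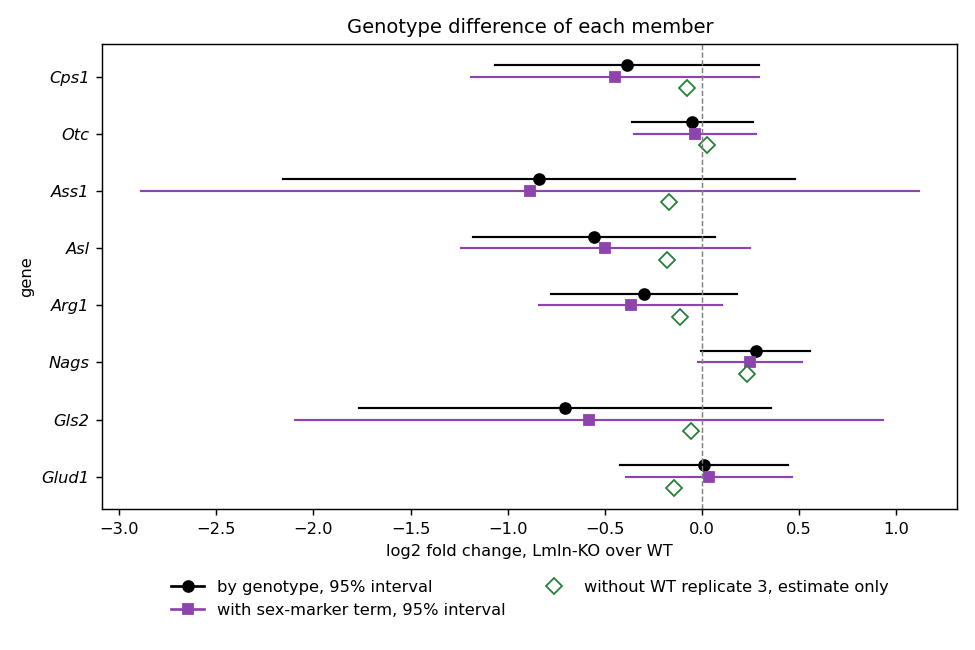
Log2 fold change of Lmln-KO over WT (horizontal axis) for each gene by genotype (black circles) and with the sex-marker term (purple squares), with 95% intervals, and without WT replicate 3 (open green diamonds, estimate only). Every interval includes 0, and the estimate without WT replicate 3 lies closer to 0 for all genes but Glud1, where it is -0.14.

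The members were counted deeply enough that counting error was small beside the spread between libraries. The lowest count of any member in a library was 762, for Nags, with an error of 3.62% that covers counting only, and Cps1 had 73120 to 153427 counts per library. That error takes every count as independent. Paired-end reads were counted without a paired-end option, so it may be too small. The SD between libraries as a percentage of the mean was 16.9% in Lmln-KO and 38.6% in WT for Cps1, 25.96% in Lmln-KO and 66.5% in WT for Ass1, 8.16% in Lmln-KO and 40.5% in WT for Asl, and 15.8% in Lmln-KO and 62.8% in WT for Gls2. For Otc it was 10.4% in Lmln-KO and 9.16% in WT, and for Nags 10.9% in Lmln-KO and 10.4% in WT. With 3 libraries in each group, a difference in spread between the genotypes was not tested.

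Relative to each gene's own mean, WT replicate 3 stood 1.34 higher on the log2 scale for Ass1, 1.23 for Gls2, 0.86 for Asl, 0.71 for Cps1, 0.47 for Arg1 and 0.17 for Otc. It was at -0.23 for Nags and -0.36 for Glud1. Against the median of the other 5 libraries its level was 3.03 times as high for Ass1, 2.95 for Gls2, 2.13 for Asl and 1.88 for Cps1. Of the 4405 genes whose log2 CPM averaged 5 or more, 4.13% exceeded that median by more than 1.5 times in this library and 1.45% by more than 2 times. Of the 8 members, 4 exceeded it by more than 1.5 times and 3 by more than 2 times. These limits were chosen after the values were seen.

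**Figure D3:**
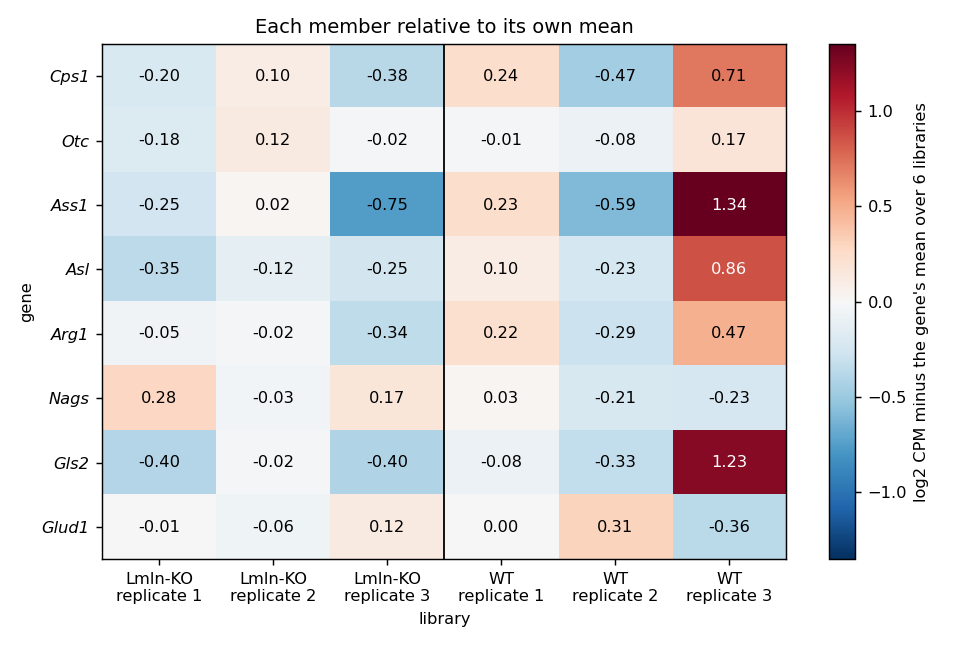
Log2 CPM of each gene (rows) in each library (columns, Lmln-KO left of the line and WT right of it) minus the gene's mean over the 6 libraries; red is above the mean and blue below it. WT replicate 3 reads 1.34 for Ass1, 1.23 for Gls2 and -0.36 for Glud1, and the row of Otc stays between -0.18 and 0.17.

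Summed levels of markers of the liver zones also stood apart in that library, with 1 gene weighing heavily in each sum. The summed level of 9 other periportal hepatocyte markers was 7319, 7488 and 7486 CPM in Lmln-KO replicates 1, 2 and 3, against 8573, 8737 and 12057 CPM in WT replicates 1, 2 and 3, and WT replicate 3 was the highest library for 6 of the 9. Pck1 alone gave 5454 CPM of the sum in WT replicate 3, against 1471 to 3134 CPM in the other libraries. Of the 9, 8 had a negative log2 fold change (median -0.27), beside 9466 of the 18703 genes tested. The summed level of 10 pericentral markers was 7623, 7593 and 10844 CPM in Lmln-KO replicates 1, 2 and 3, against 7313, 9149 and 5685 CPM in WT replicates 1, 2 and 3, and WT replicate 3 was the lowest library for 5 of the 10. Cyp2e1 alone gave 3446 CPM of the sum in WT replicate 3, against 4747 to 6851 CPM in the other libraries. All 10 had a positive log2 fold change (median 0.24), beside 9237 of the 18703 genes tested. Of the 9 periportal markers 0 were called by edgeR, and of the 10 pericentral markers 0, where 0% of all genes tested were. A change in either zone was therefore not shown between genotypes, and the directions were counted only with WT replicate 3 included. Numbers of cells and RNA per cell cannot be told apart in whole liver. The part of these zone markers in the differences of the members was not tested.

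Hepatocyte markers were high in every library, at a summed 53632 to 67761 CPM in Lmln-KO and 69605 to 82862 CPM in WT for the 4 of 5 listed genes found in the table. Most of it was Alb, at 45715 to 60834 CPM in Lmln-KO and 62501 to 74329 CPM in WT. Its groups did not overlap, as for 10.3% of all genes tested, and its log2 fold change of -0.34 had an edgeR adjusted p of 0.933. The groups overlapped for Ttr, Apoa1 and Serpina1c, with log2 fold changes of -0.084, -0.11 and 0.18. Cps1 and Otc are also known from the intestinal mucosa, and Arg1 from macrophages. The 5 enterocyte markers summed to 34.6 to 43.4 CPM in Lmln-KO and 34.7 to 48.7 CPM in WT, nearly all of it Fabp2, while Sis and Cdx2 were at 0 in all 6 libraries. The 5 pancreas markers summed to 5.03 to 20.3 CPM in Lmln-KO and 3.85 to 24.9 CPM in WT, nearly all of it Cela1, while Pnlip and Cpa1 were at 0 in all 6 libraries. The 5 Kupffer cell markers summed to 167 to 198 CPM in Lmln-KO and 180.1 to 249 CPM in WT, and WT replicate 3 was the highest library for 0 of the 5. Endothelial markers summed to 302 to 381 CPM in Lmln-KO and 336 to 338 CPM in WT, stellate cell markers to 315 to 466 CPM in Lmln-KO and 398 to 477 CPM in WT, and cholangiocyte markers to 31.4 to 49.9 CPM in Lmln-KO and 24.5 to 45.0 CPM in WT. Lymphocyte markers summed to 1.75 to 2.26 CPM in Lmln-KO and 2.20 to 7.95 CPM in WT. The 5 kidney markers summed to at most 0.171 CPM in an Lmln-KO library and at most 0.576 CPM in a WT library, and Aqp2 was at 0 in all 6 libraries. The part of these markers in the results was not tested.

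When libraries were compared within the sets of sex-chromosome transcripts, the direction with all libraries was alike in both for 7 genes and opposite for Glud1. Among libraries with Y-linked transcripts (Lmln-KO replicates 1 and 2 minus WT replicate 1) the log2 differences were -0.29 for Cps1, -0.35 for Ass1, -0.34 for Asl, -0.25 for Arg1, -0.13 for Gls2 and 0.092 for Nags. Among libraries with Xist (Lmln-KO replicate 3 minus the mean of WT replicates 2 and 3) they were -0.50 for Cps1, -1.13 for Ass1, -0.56 for Asl, -0.43 for Arg1, -0.85 for Gls2 and 0.39 for Nags. In that second set Lmln-KO replicate 3 lay between the WT libraries for Cps1, Otc and Glud1, below both for Ass1, Asl, Arg1 and Gls2, and above both for Nags. Except for Nags, the differences among libraries with Xist depended on WT replicate 3. Against WT replicate 2 alone, a comparison added after the values were seen, Lmln-KO replicate 3 differed by 0.087 for Cps1 and 0.065 for Otc, in the other direction, and by -0.18 for Glud1, also turned. The value was -0.16 for Ass1, -0.016 for Asl, -0.054 for Arg1, -0.067 for Gls2 and 0.38 for Nags. With all libraries, the log2 difference of Otc was -0.017 among libraries with Y-linked transcripts and -0.061 among those with Xist, and for Glud1 it was -0.042 among the first and 0.15 among the second. Each set held 1 genotype by a single library, and in the set with Xist that library was the one labelled 39 weeks, so age and genotype cannot be told apart there.

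The genotype difference of a member was not shown to differ between the sets. In edgeR's test of the interaction, which had 2 residual degrees of freedom, 0 of the 8 genes passed, where 0% of all genes tested did, and the adjusted p was 0.99995 for each. The largest interaction was that of Ass1, at -1.09 on the log2 scale with an unadjusted p of 0.459.

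Per length of transcript the members kept a broad order. In TPM (counts per kilobase of exon, scaled to the same total in every library), Cps1 averaged 2109.8 ± 191 in Lmln-KO and 2706 ± 997 in WT (SD, n = 3) and led in every library. Arg1 followed with 722 ± 43.4 TPM in Lmln-KO and 869 ± 202 TPM in WT, and Glud1 with 685 ± 101 TPM in Lmln-KO and 667 ± 172 TPM in WT. Arg1 and Glud1 were not separated beyond their spread, and Glud1 exceeded Arg1 in Lmln-KO replicate 3 and WT replicate 2.

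Below them lay Otc, Gls2, Ass1 and Asl. In Lmln-KO, Otc averaged 235 ± 23.1 TPM, Gls2 197 ± 18.2, Ass1 191 ± 35.5 and Asl 169 ± 13.0, and the ranges of Otc and Asl did not overlap there. In WT, Otc averaged 239 ± 19.0 TPM, Gls2 315 ± 194, Ass1 336 ± 220.04 and Asl 242 ± 94.7. Nags was last in every library, with 48.8 ± 7.93 TPM in Lmln-KO and 39.2 ± 3.24 TPM in WT. In WT replicate 3 the order was Cps1, Arg1, Ass1, Gls2, Glud1, Asl, Otc and Nags, so that Ass1 and Gls2 stood above Glud1 there and in no other library.

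**Figure D4:**
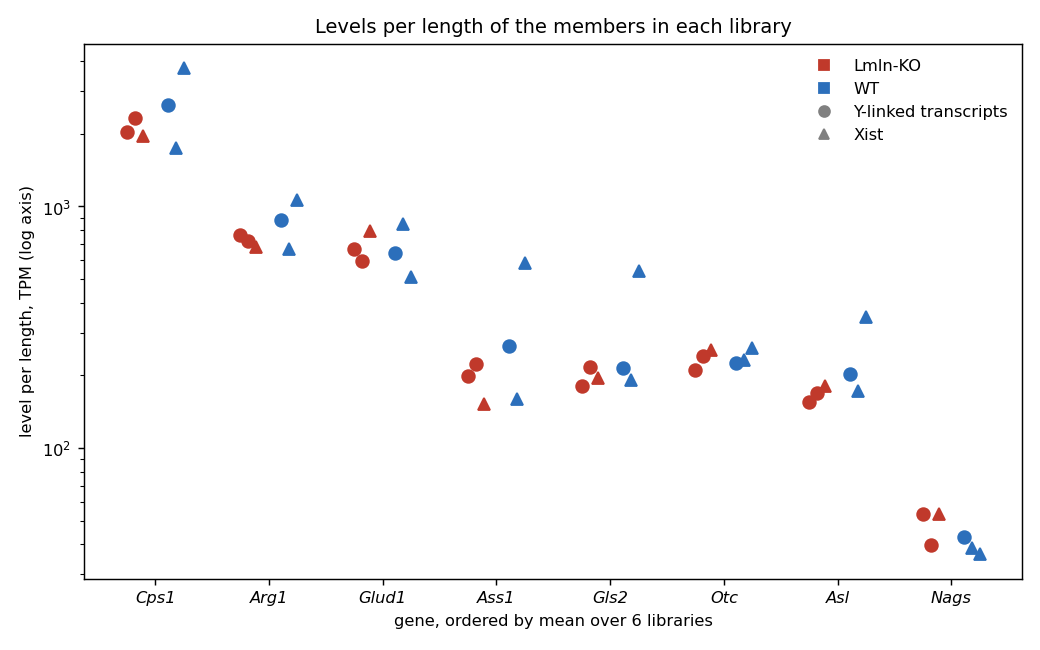
Level per length in TPM (log axis) of each gene in the 6 libraries, Lmln-KO in red left of WT in blue, with circles for libraries with Y-linked transcripts and triangles for libraries with Xist. Cps1 is highest (1742 to 3733 TPM) and Nags lowest (36.3 to 53.4 TPM) in every library, and WT replicate 3 departs from the rest for Ass1, Gls2 and Asl.

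Ratios of TPM within a library need no scaling between libraries, and WT replicate 3 lay outside the range of the others for several of them. The ratios shown first set genes high in that library against genes low in it. Glud1 over Gls2 was 3.71, 2.75 and 4.08 in Lmln-KO replicates 1, 2 and 3, against 3.01, 4.42 and 0.944 in WT replicates 1, 2 and 3. Gls2 over Glul, the glutaminase over the glutamine synthetase, was 0.376, 0.409 and 0.214 in Lmln-KO replicates 1, 2 and 3, against 0.490, 0.271 and 2.07 in WT replicates 1, 2 and 3. Cps1 over Nags was 38.3, 58.7 and 36.7 in Lmln-KO replicates 1, 2 and 3, against 61.9, 45.0 and 103 in WT replicates 1, 2 and 3. Arg1 over Asl was 3.74 to 4.92 in Lmln-KO, against 4.30, 3.84 and 3.05 in WT replicates 1, 2 and 3. Arg1 over Arg2, the extrahepatic arginase, was 856 to 1952 in Lmln-KO, against 703 to 868 in WT, where WT replicate 3 lay within the range of the other 5 libraries. Arg2 had only 11, 5 and 6 counts in Lmln-KO replicates 1, 2 and 3, against 13, 10 and 13 in WT replicates 1, 2 and 3. Arg1 over Arg2 therefore rests on few counts, and a genotype difference in it was not tested. Together the 8 genes took 0.771%, 0.876% and 0.752% of all counts in Lmln-KO replicates 1, 2 and 3, against 0.958%, 0.733% and 1.34% in WT replicates 1, 2 and 3.

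Of 48 other genes of ammonia and amino nitrogen handling, taken whole from a list of transporters, enzymes and regulators, 46 had enough counts to be tested and 0 were called, by edgeR or DESeq2, with or without the sex-marker term. The median log2 fold change of the 46 was -0.034, with 16 positive and 30 negative, and 7 of the 46 had an unadjusted p under 0.05 in the fit by genotype, beside the 4.66% of all genes tested. With the sex-marker term 4 had one, where 4.34% of all genes tested did. The groups did not overlap for 7 of the 46, 2 with Lmln-KO higher and 5 with Lmln-KO lower, beside the 10.3% of all genes tested given above. Leaving out WT replicate 3 put the median at -0.018, with 2 of the 46 at an unadjusted p under 0.05, against 2.31% of the 19409 genes tested without that library. Of the 46, 19 were highest and 6 lowest in that library, and of the 5 genes of glycine, serine, histidine and lysine breakdown 4 were highest there and all 5 had a negative log2 fold change (median -0.25).

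Among the partners of Cps1, Slc25a15, the mitochondrial ornithine carrier, measured 386, 372 and 335 CPM in Lmln-KO replicates 1, 2 and 3, against 452, 358 and 525 CPM in WT replicates 1, 2 and 3, with WT replicate 3 again highest (log2 fold change -0.29, SE 0.16, and -0.15 without that library). Slc25a13, the aspartate and glutamate carrier citrin, measured 247, 274 and 295 CPM in Lmln-KO, against 238, 262 and 252 CPM in WT (log2 fold change 0.12, SE 0.12). Car5a, the mitochondrial carbonic anhydrase that supplies bicarbonate to carbamoyl phosphate synthetase, measured 33.1, 34.7 and 33.6 CPM in Lmln-KO, against 29.2, 27.0 and 29.5 CPM in WT. Its groups did not overlap, yet the log2 fold change of 0.24 (SE 0.092) had an edgeR adjusted p of 0.933, and the sex-marker term left it at 0.987. The log2 fold change was 0.27 without WT replicate 3.

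Glutamine synthesis gave no call either. Glul, the pericentral glutamine synthetase, measured 749, 894 and 1310.2 CPM in Lmln-KO replicates 1, 2 and 3, against 716, 1083 and 419.6 CPM in WT replicates 1, 2 and 3, and WT replicate 3 was the lowest library. Its log2 fold change was 0.41 (SE 0.37), and 0.13 once that library was left out.

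Amino acid transporters included the widest of the differences with an unadjusted p under 0.05. Slc7a2, which carries arginine and other cationic amino acids, measured 846, 909.6 and 849 CPM in Lmln-KO replicates 1, 2 and 3, against 1334, 853 and 2341 CPM in WT replicates 1, 2 and 3. Its log2 fold change was -0.80 (SE 0.34, edgeR adjusted p 0.933), and -0.33 without WT replicate 3. Slc38a2, a carrier of neutral amino acids, measured 219, 263 and 268 CPM in Lmln-KO, against 352, 338 and 495 CPM in WT, without overlap. Its log2 fold change of -0.66 (SE 0.18) had an edgeR adjusted p of 0.933, and was -0.59 with the sex-marker term and -0.46 without WT replicate 3. Slc25a22, a mitochondrial glutamate carrier, measured 153, 154 and 174.5 CPM in Lmln-KO, against 161, 226 and 291 CPM in WT, and its log2 fold change of -0.49 (SE 0.20) shrank to -0.27 when WT replicate 3 was left out. Slc1a2, a pericentral glutamate transporter, measured 319, 341 and 576 CPM in Lmln-KO, against 264, 476 and 301 CPM in WT. By genotype its log2 fold change was 0.25 (SE 0.30), and the sex-marker term made it 0.44 (SE 0.18, edgeR adjusted p 0.987).

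Transcription factors known to act on amino acid catabolism were on the list as well. Klf15 measured 146 to 172 CPM in Lmln-KO, against 176 to 299 CPM in WT, and Foxo1 53.0 to 62.0 CPM in Lmln-KO, against 63.2 to 92.1 CPM in WT. For Klf15 the log2 fold change was -0.50 (SE 0.20), or -0.24 without WT replicate 3, and for Foxo1 it was -0.40 (SE 0.15), or -0.25 without that library, each with an edgeR adjusted p of 0.933. Of the factors that maintain the hepatocyte programme, Hnf4a had a log2 fold change of -0.029 (edgeR adjusted p 0.984). Cebpa measured 352 to 396 CPM in Lmln-KO, against 216 to 344 CPM in WT, without overlap, and its log2 fold change of 0.32 (edgeR adjusted p 0.933) was 0.15 without WT replicate 3.

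**Figure D5:**
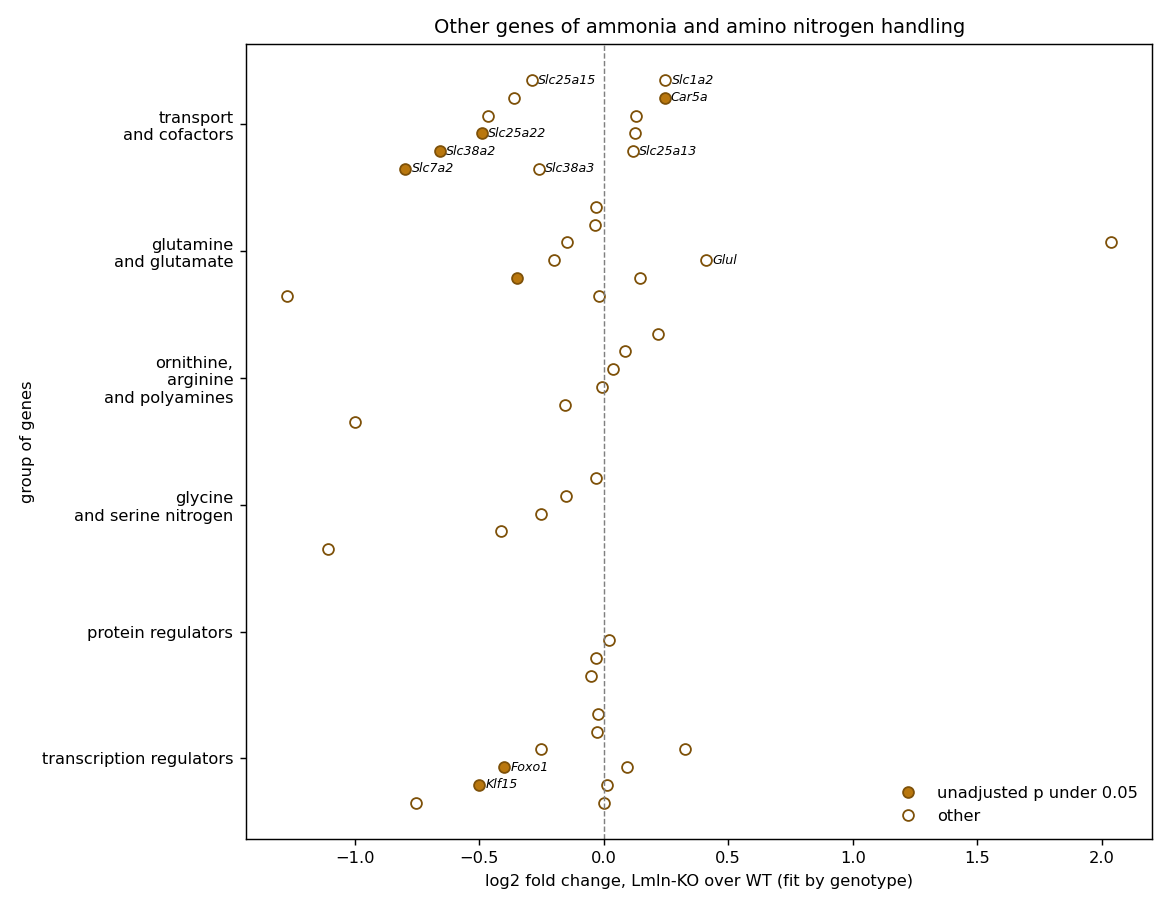
Log2 fold change of Lmln-KO over WT (horizontal axis, fit by genotype) for the 46 tested genes of the related list, by group; filled points have an unadjusted p under 0.05. Of 7 filled points 6 lie left of 0 and Car5a lies right of it at 0.24, and none has an adjusted p under 0.05.

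The genes nearest to the mean profile of the members were sought among 4397 others whose log2 CPM averaged 5 or more. The measure was the root mean square distance over the 6 libraries between the gene's centred log2 CPM and the mean of the 8 members. Closest was Slc38a3, a glutamine transporter of hepatocytes and a gene of the related list, at 0.036, where the median of all candidates was 0.31. It measured 1420.3, 1592 and 1401 CPM in Lmln-KO replicates 1, 2 and 3, against 1752, 1315 and 2223 CPM in WT replicates 1, 2 and 3. Next were Hgd (0.057), a dioxygenase of tyrosine breakdown, Amdhd1 (0.064), an amidohydrolase of histidine breakdown, Gstm7 (0.066), a glutathione transferase, and Atp1b1 (0.068), a subunit of the sodium pump. Their log2 fold changes ran from -0.35 to -0.21, each with an edgeR adjusted p of 0.933. Of the members, each of which enters that mean, Arg1 was nearest to it, at 0.083, and Glud1 the farthest, at 0.45. Ass1 (0.43), Nags (0.39) and Gls2 (0.32) also lay farther from it than the median candidate (0.31). The mean is therefore not a profile that all 8 members share.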

How the data were processed

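Total RNA of 6 mouse livers was depleted of ribosomal RNA and sequenced as a directional paired-end library, per the labels' protocols. The authors deposited raw counts by gene name. They ran featureCounts 2.0.1 on exons, with Ensembl release 102 (GRCm38) as annotation, per the file headers, whose command sets no paired-end or strand option. The submitters' processing notes name Subread 2.0.2 and edgeR 3.36.0. No aligner or alignment setting is named in the sources used here.

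From the counts, edgeR 4.0.16 in R 4.3.3 fitted genotype by robust quasi-likelihood after TMM scaling and filterByExpr (minimum count 10; 18703 genes with 99.8% of counts), with Benjamini-Hochberg adjustment over all genes at 0.05. SE is the absolute log2 fold change over the square root of F, and intervals cover 95%. Log2 CPM used a prior count of 2. TPM used the deposited exon lengths. DESeq2 1.42.0 and limma-voom (limma 3.58.1) were alternatives, and the steps were tested on simulated counts. The sex-marker term separates libraries with more Xist than summed Ddx3y, Uty, Kdm5d and Eif2s3y.

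The members, lists and tests were chosen with earlier results of these data known. Named genes are the 8 members, up to 8 related genes with an unadjusted p under 0.05 in either fit, Glul, Slc25a15, Slc25a13 and Car5a, and the 5 genes nearest in profile; Hnf4a and Cebpa were named after their values were seen. Not every related gene that the rule names is reported here. The labels number replicates without saying that each is its own animal, so p-values measure the spread between libraries, and every pair of libraries differed beyond sampling noise (lowest chi-square divided by its degrees of freedom 12.3).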

Additional observations from a re-analysis of the deposited data

How the results depend on the processing

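None of the 8 members and none of the related genes tested was called under any of 17 alternatives. These were other scalings and filters, DESeq2, limma-voom, the sex-marker term, the replicate block, a fit without robust moderation and leaving out each library. The related genes tested numbered 46, except for 40 under the stricter filter on low counts and 48 without a filter. The median log2 fold change of the members ran from -0.56 to -0.096 over them, the lower end without WT replicate 2 and the upper end without WT replicate 3. Of the comparisons of single genes by genotype, 130 kept their direction and 6 did not, and with the sex-marker term 52 did and 4 did not; all 10 concern Otc or Glud1, and their cause was not tested. For Otc the log2 fold change ran from -0.13 to 0.031 when single libraries were left out, and from -0.11 to 0.025 with the sex-marker term. For Glud1 it ran from -0.14 to 0.18, and from -0.10 to 0.18 with the term, and it was -0.014 with upper-quartile factors and -0.0024 under the stricter filter on low counts.

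The number of genes called over the whole table was 0 by genotype, 24 with DESeq2, 3 without a filter on low counts, 1 with the sex-marker term, 31 with that term in DESeq2, 1 with the replicate block and 0 to 3 when single libraries were left out. With the sex-marker term it was 1, against 31 in DESeq2 and 0 to 4 when single libraries were left out. Replicate numbers did not pair the libraries: deviations from the group means correlated at 0.465, -0.311 and 0.405 between libraries numbered 1, 2 and 3, and not every library correlated best with its own number. The replicate block gave a member median of -0.30. With 3 libraries a group the intervals of Ass1 and Gls2 span more than 2 log2 units, so a difference of moderate size was not detectable in them.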

Other observations

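Got1, Sds, Hal and Pck1, named after their values were seen, were also highest in WT replicate 3. Of the 46 tested related genes 19 were highest there, against 23.7% of all genes tested. The amino acid enzymes Got2, Gpt2, Amt, Prodh and Oat were not. Got1, the cytosolic aspartate aminotransferase, measured 82.9, 127 and 148 CPM in Lmln-KO replicates 1, 2 and 3, against 148, 159 and 559 CPM in WT replicates 1, 2 and 3. Sds, the serine dehydratase of periportal hepatocytes, measured 60.0, 70.4 and 44.6 CPM in Lmln-KO replicates 1, 2 and 3, against 88.1, 56.2 and 233 CPM in WT replicates 1, 2 and 3. Hal, the histidine ammonia-lyase, measured 484, 535 and 405 CPM in Lmln-KO replicates 1, 2 and 3, against 624, 423 and 853 CPM in WT replicates 1, 2 and 3. Pck1, the gluconeogenic carboxykinase of the same zone, measured 2199, 1471 and 2414 CPM in Lmln-KO replicates 1, 2 and 3, against 2540 and 3134 CPM in WT replicates 1 and 2 and 5454 CPM in WT replicate 3. The groups did not overlap for Pck1, as for 10.3% of all genes tested, and overlapped for Got1, Sds and Hal. None of these genes passed in edgeR (adjusted p 0.933 for each). Cyp2f2, another periportal marker, did not have this profile: it measured 848, 1239 and 465 CPM in Lmln-KO replicates 1, 2 and 3, against 861, 577 and 373 CPM in WT replicates 1, 2 and 3, where WT replicate 3 was the lowest.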
